A study of Mus musculus and Mus musculus x Mus spretus with 14 samples.

Results

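Papilloma and immortalized keratinocyte lines were compared for microRNA (miRNA) levels in a set of mouse skin cell lines profiled on Exiqon arrays. The lines were taken by their labelled cell type, and they make up 5 of the 13 lines studied, 2 from papillomas and 3 from immortalized keratinocytes. MSCP1 and P6 are the papilloma lines. Their descriptions trace both to Mus spretus by CBA mice treated with DMBA, a carcinogen, and TPA, a tumour promoter, and call the mice F1 hybrids for MSCP1. Among the immortalized keratinocyte lines, C5N is a nontumorigenic clone grown from a single cell of MCA3D, a premalignant keratinocyte line of a BALB/c mouse. C50 is described only as an immortalized mouse keratinocyte line. NK became immortal spontaneously and came from a p53 null mouse, so that 1 of the 3 immortalized lines lacks p53. The labels disagree on 2 lines, since the organism field gives the Mus spretus cross for MSCP1 and NK and the descriptions give it for MSCP1 and P6. By the descriptions, the cross and the papilloma label thus coincide and cannot be told apart among these 5 lines. All 5 lines are labelled squamous and non-malignant and were grown in DMEM with 10% serum, and 1 array with 1 µg of labelled RNA stands for each. The other 8 lines are malignant squamous or spindle lines. With 1 array per line, the spread between lines holds both biological and array differences, and these cannot be told apart.

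A miRNA is a short RNA that guides silencing proteins to messenger RNAs, mainly by pairing through its seed, bases 2 to 8 from the 5′ end. In stratified epithelium miR-205 is abundant in keratinocytes, miR-203 accompanies the exit from the basal layer and represses the stem cell factor p63, and the miR-200 family represses Zeb1 and Zeb2, which drive epithelial cells toward a mesenchymal state. Papillomas of DMBA and TPA treated mouse skin usually carry an activated Hras gene and are benign precursors of squamous carcinoma. The series title names miR-203 and miR-205.

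Mature sequences are given for selected miRNAs, none of which passed the test described below. They are RefSeq mature sequences on the GRCm38.p6 build, with the seed in capitals. Of 32 array names looked up, 29 matched. The first pair are the miRNAs of the series title, at chr12:112130927-112130948 on the plus strand and chr1:193507503-193507524 on the minus strand. No annotated protein-coding gene spans either site, and non-coding host genes were not looked up.
miR-203-3p: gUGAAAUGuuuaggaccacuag
miR-205-5p: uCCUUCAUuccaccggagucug

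The next set is shown because its members were brighter on P6 than on C50 and NK, and the 3 members of the miR-29 family share 1 seed. miR-125b-5p has copies at chr9:41581940-41581961 and chr16:77646279-77646300, both on the plus strand. The miR-193a-3p sequence, which the array names miR-193, lies at chr11:79712009-79712030 on the plus strand, and that of miR-29a at chr6:31062673-31062694 on the minus strand.
miR-125b-5p: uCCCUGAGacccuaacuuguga
miR-193a-3p: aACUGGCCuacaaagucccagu
miR-29a-3p: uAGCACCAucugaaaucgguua
miR-29b-3p: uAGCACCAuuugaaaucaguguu
miR-29c-3p: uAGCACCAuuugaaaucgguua

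The set that follows was dimmer on P6 than on C50 and NK. miR-27a and miR-27b share a seed that differs from those of miR-23a and miR-24. These miRNAs come from a cluster on chromosome 8 and another on chromosome 13, which lies inside Aopep and where miR-27b sits at chr13:63300760-63300780 on the plus strand. miR-140-3p, named miR-140* on the array, lies inside Wwp2 at chr8:107551288-107551308 on the plus strand.
miR-23a-3p: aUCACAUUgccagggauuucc
miR-24-3p: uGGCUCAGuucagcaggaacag
miR-27a-3p: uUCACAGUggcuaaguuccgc
miR-27b-3p: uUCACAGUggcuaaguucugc
miR-30e-5p: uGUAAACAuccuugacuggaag
miR-140-3p: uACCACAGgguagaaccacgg

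The miR-200 family, the main epithelial family on these arrays, falls into 2 seed groups. miR-200a and miR-141 share one seed, and miR-200b, miR-200c and miR-429 share the other.
miR-200a-3p: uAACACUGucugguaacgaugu
miR-141-3p: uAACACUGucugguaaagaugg
miR-200b-3p: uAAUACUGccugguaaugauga
miR-200c-3p: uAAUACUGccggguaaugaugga
miR-429-3p: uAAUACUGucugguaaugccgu

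The last sequences are those of miR-21, which lies within Vmp1 and is the most studied miRNA of skin tumour promotion, and of the miR-146 pair, which share a seed and were slightly brighter on both papilloma lines.
miR-21a-5p: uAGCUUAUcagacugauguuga
miR-146a-5p: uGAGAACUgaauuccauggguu
miR-146b-5p: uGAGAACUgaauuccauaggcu

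Arrays of 2 of the 5 lines stood apart, 1 in each group. A probe counted as above background where its signal exceeded its array's median negative control, of 8 such probes, by over 1 log2 unit. Of 576 mouse miRNA probes, 37 on MSCP1 and 148 on P6 passed, against 129 on C5N, 150 on C50 and 135 on NK. Over the probes above background on P6, the signal above background of MSCP1 had a slope of 0.380 on that of P6, fitted without an intercept. The slopes on P6 were 0.436 for C5N, 0.981 for C50 and 0.927 for NK. Over these probes the Pearson r with P6 was 0.866 for MSCP1, 0.240 for C5N, 0.888 for C50 and 0.834 for NK. MSCP1 and P6 ordered the probes similarly, with a Pearson r of 0.876 over 576 probes and 16 of the 20 brightest probes in common. The U6-snRNA-2 probe, a small nuclear RNA, read 10.42 on MSCP1 and 13.09 on P6, against 10.45 on C5N, 13.10 on C50 and 11.85 on NK. Spike-in probes averaged 7.72 on MSCP1 and 9.02 on P6, against 7.67 on C5N, 8.78 on C50 and 9.04 on NK. C5N correlated with the other 4 lines at only 0.308 to 0.334 and shared 3 to 5 of its 20 brightest probes with them. Its brightest probes included miR-19a* at 14.43 and miR-671-3p at 14.49, and miR-21 read 7.01 on it. Of 7 array-wide measures, including the number of probes above background and control probe levels, 0 separated the 2 groups in an exact permutation test over 10 splits of the lines (two-sided p from 0.2 to 0.9, adjusted p from 0.7 to 0.9). The smallest p that 2 lines against 3 can give is 0.1.

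**Figure D1:**
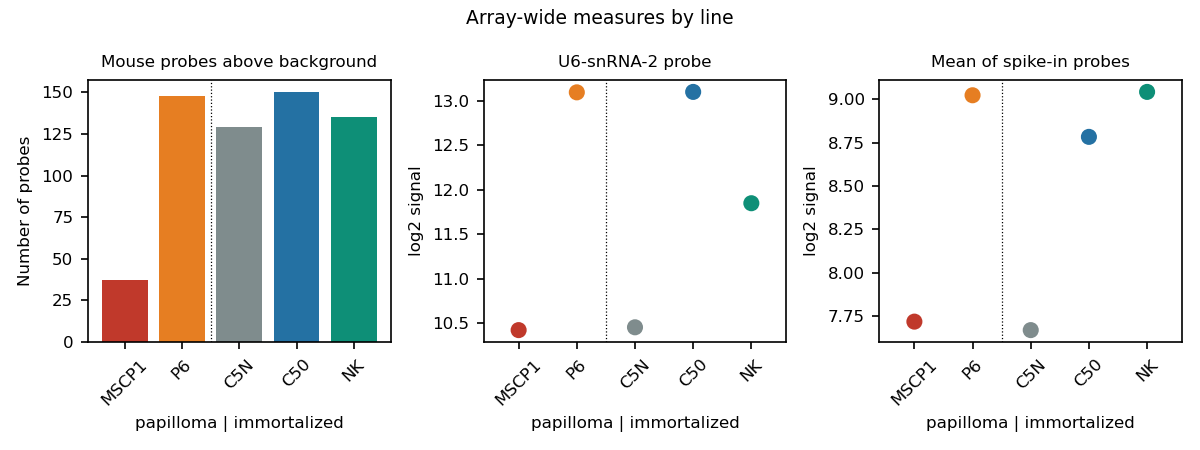
Mouse probes above background (left, number of probes), the U6-snRNA-2 probe (middle, log2 signal) and the mean of the spike-in probes (right, log2 signal) on the papilloma lines MSCP1 and P6 and the immortalized lines C5N, C50 and NK, 1 array per line. MSCP1 has 37 probes above background against 129 to 150 on the immortalized lines, and MSCP1 and C5N have the lowest U6 and spike-in signals.

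The remaining papilloma line was close to the remaining immortalized lines. P6 correlated with C50 at 0.948 and with NK at 0.914, and C50 correlated with NK at 0.950, as descriptions over the same 576 probes. As a yardstick, the 2 arrays of the spindle line A5 correlated at 0.994, and 99% of their probes differed by less than 0.51 log2 units. By that limit 67 of 576 probes differed between P6 and C50, 112 between P6 and NK, and 75 between the immortalized lines C50 and NK themselves. MSCP1 and P6, both papilloma lines, differed at 181 probes. P6 thus lay about as far from C50 as C50 lay from NK, and it lay further from NK.

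**Figure D2:**
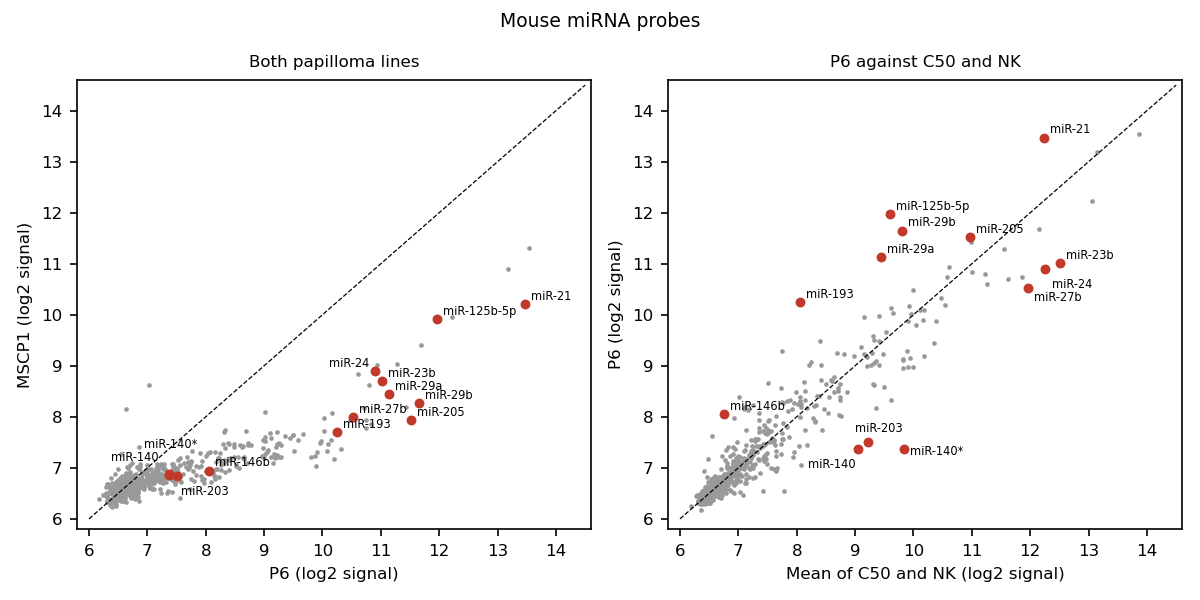
Left, log2 signal of each mouse miRNA probe on MSCP1 (vertical) against P6 (horizontal), and right, on P6 (vertical) against the mean of C50 and NK (horizontal), with the line of equality dashed and selected miRNAs in red. Bright probes on P6 lie below the line on MSCP1, while most probes on P6 lie near the line against C50 and NK, with miR-125b-5p, miR-193, miR-29a and miR-29b above it and miR-24, miR-23b, miR-27b, miR-140, miR-140* and miR-203 below it.

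No mouse miRNA passed the test between the 2 papilloma and 3 immortalized lines. In limma, fitted on all 13 lines with Benjamini-Hochberg adjustment over 576 probes, 0 probes (0.0%) had an adjusted p under 0.05 and the smallest adjusted p was 0.999. Without adjustment, 14 probes had a p under 0.05, all 14 lower on papilloma lines (2.43%) and 0 higher. Of the 576 differences, papilloma minus immortalized, 442 were below 0 and 134 above, and among the 148 probes above background on at least 2 of the 5 lines 118 were below 0. The median over all probes was -0.12, and it became 0.29 when each array was shifted to the median of its bright probes, those above background on at least 7 of the 13 lines. The levels did not overlap between the groups for 8 probes higher on both papilloma lines (1.39%) and for 51 lower on both (8.85%), or 59 in all (10.2%). That split depended on the scaling, being 47 higher and 41 lower after quantile normalization of the 13 lines and 19 higher and 7 lower after the shift.

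None of the 8 higher probes was above background on both papilloma lines. They were miR-146a, miR-146b, miR-138, miR-505, miR-208, miR-220, miR-676* and miR-202-3p. miR-146a read 7.10 on MSCP1 and 7.62 on P6, against 6.61, 6.48 and 6.63 on C5N, C50 and NK. miR-146b read 6.95 on MSCP1 and 8.05 on P6, against 6.77, 6.73 and 6.77. Both are induced by NF-kappaB and dampen inflammatory signalling through Irak1 and Traf6. Their differences were 0.78 ± 0.38 and 0.75 ± 0.40 log2 units (SE, limma adjusted p = 0.999 for each). On the malignant squamous lines B9, E4 and PDVC57, miR-146a read 7.71, 8.02 and 7.44 and miR-146b read 7.57, 7.98 and 7.63.

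In the lower direction, 6 of the 51 probes were above background on all 3 immortalized lines. These were miR-140, miR-32, miR-93, miR-691, miR-25 and miR-582-3p. miR-140, best known from cartilage, read 6.88 on MSCP1 and 7.37 on P6, against 8.12, 8.88 and 9.22 on C5N, C50 and NK, and was at background on both papilloma lines. Group means were 7.13 ± 0.35 (SD, n = 2) on papilloma lines and 8.74 ± 0.57 (SD, n = 3) on immortalized lines. Set against the lowest signal above background, miR-140 was at least 2.16-fold higher on immortalized lines, with a limma adjusted p of 0.999. Its partner from the same hairpin, miR-140*, read 6.86 and 7.37 on MSCP1 and P6, against 6.86 on C5N, 9.62 on C50 and 10.05 on NK. Both papilloma lines thus lay with C5N and at least 2 log2 units below C50 and NK. On the malignant squamous lines B9, E4 and PDVC57, miR-140 read 7.50, 7.06 and 7.32 and was at background on each, as on the papilloma lines. There miR-140* read 7.93, 7.69 and 7.68.

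The other 5 non-overlapping miRNAs were nearer in signal to C50 and NK on P6 than on MSCP1. By rank within the array, MSCP1 was not always lower. miR-25 ranked 74 on MSCP1 and 117 on P6, against 83 on C50 and 85 on NK. miR-582-3p ranked 19 on MSCP1 and 61 on P6, against 57 on C50 and 46 on NK. After quantile normalization without C5N, the groups overlapped for miR-93, miR-25, miR-691 and miR-582-3p, but not for miR-32. miR-93, which shares an Mcm7 intron with miR-25 and belongs to the paralogs of the proliferation-associated miR-17-92 cluster, read 7.41 on MSCP1 and 8.62 on P6, against 9.70 on C5N, 9.10 on C50 and 9.55 on NK. Its difference of -1.44 ± 0.74 log2 units (SE, limma adjusted p = 0.999) was -0.83 without MSCP1, -1.31 without C5N and -0.71 without both. miR-25 read 7.31 on MSCP1 and 8.07 on P6, against 8.63, 8.56 and 8.51 on C5N, C50 and NK, and its difference of -0.88 was -0.50 without MSCP1 and -0.85 without C5N. miR-32, which has the seed of miR-25, read 7.12 on MSCP1 and 7.74 on P6, against 10.58 on C5N, 8.07 on C50 and 8.78 on NK. Its difference of -1.71 was -1.40 without MSCP1 and -0.995 without C5N, the line with the highest level.

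The miRNAs of the series title did not pass the test either. miR-203 was low on both papilloma lines, at 6.84 on MSCP1 and 7.50 on P6, against 7.20 on C5N, 8.27 on C50 and 10.16 on NK. It was above background on 2 of the 5 lines, C50 and NK, and the groups overlapped through C5N. The means were 7.17 ± 0.46 (SD, n = 2) on papilloma lines and 8.54 ± 1.50 (SD, n = 3) on immortalized lines, a difference of -1.37 ± 0.60 log2 units (SE, limma adjusted p = 0.999). An exact permutation test of miR-203 gave a two-sided p of 0.4, or 0.8 adjusted over the 2 title miRNAs. The direction held under each alternative run, and it was -0.56 without NK, the line with the highest level. miR-203 was also at background on B9, E4 and PDVC57, at 6.94, 6.80 and 7.10.

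miR-205 was among the brighter miRNAs of both groups. It read 7.93 on MSCP1 and 11.51 on P6, against 8.93 on C5N, 11.48 on C50 and 10.45 on NK. P6 and C50 were the highest and nearly equal. By rank within the array, where 1 is the brightest mouse probe, miR-205 stood at 24 on MSCP1 and 8 on P6, against 37 on C5N, 13 on C50 and 18 on NK. The group means of 9.72 ± 2.53 (SD, n = 2) and 10.29 ± 1.28 (SD, n = 3) on papilloma and immortalized lines gave a difference of -0.57 ± 1.21 (SE, limma adjusted p = 0.999; exact permutation p = 0.8). That difference turned to 1.22 without MSCP1 and 0.03 without C50.

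**Figure D3:**
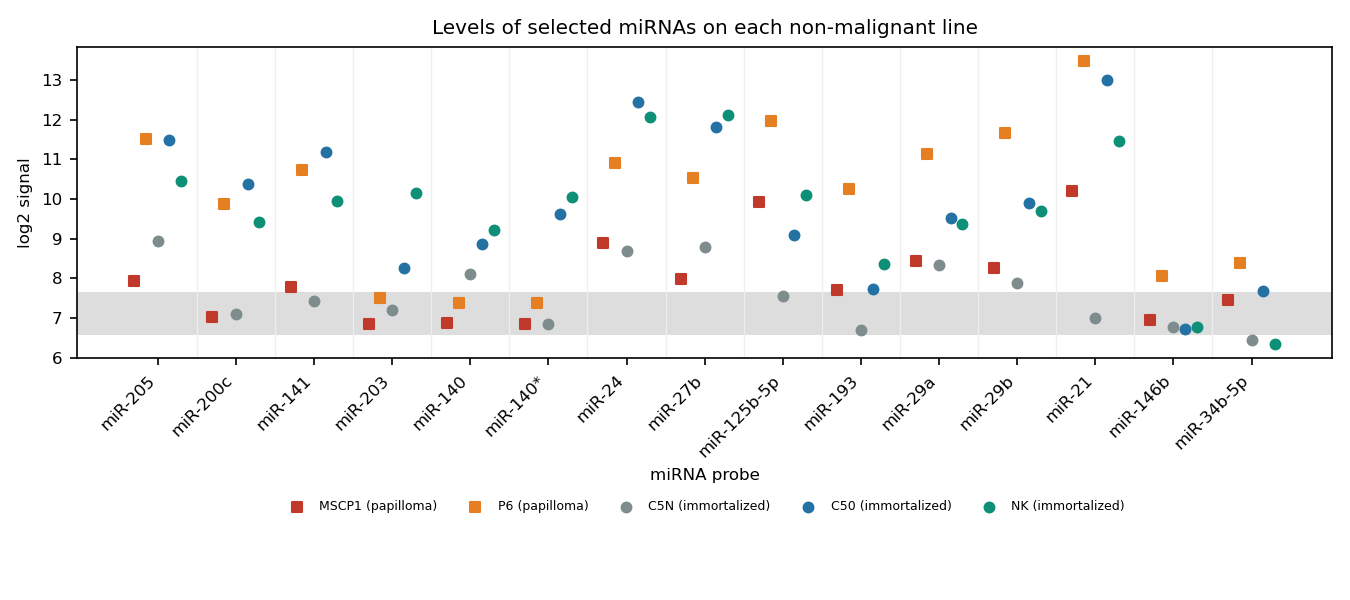
Log2 signal of selected miRNAs on each line, papilloma lines as squares (MSCP1, P6) and immortalized lines as circles (C5N, C50, NK), 1 array per line with no error bars. The grey band runs from the lowest negative-control median to 1 log2 unit above the highest one. miR-203, miR-140 and miR-140* of both papilloma lines lie in the band, and miR-29a, miR-29b, miR-193 and miR-125b-5p of P6 lie above all other lines.

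In signal, epithelial families were bright on P6 and on immortalized C50 and NK, and dim on MSCP1 and C5N. On MSCP1, 37 mouse probes in all were above background, against 129 on C5N. All 5 miR-200 family members were above background on P6, C50 and NK, against 1 each on MSCP1 and C5N. miR-200c, a repressor of Zeb1, read 7.04 on MSCP1 and 9.88 on P6, against 7.10 on C5N, 10.39 on C50 and 9.43 on NK. miR-141, its neighbour on the same transcript, read 7.78 on MSCP1 and 10.74 on P6, against 7.43 on C5N, 11.18 on C50 and 9.96 on NK. Within arrays, miR-141 ranked 27 on MSCP1 and 17 on P6, against 158 on C5N, 15 on C50 and 35 on NK. miR-200c ranked 134 on MSCP1 and 35 on P6, against 226, 22 and 53 on C5N, C50 and NK. miR-200a ranked 87 on MSCP1 and 45 on P6, against 83, 35 and 36 on C5N, C50 and NK. MSCP1 thus ranked miR-141 and miR-200c higher than C5N did, but not miR-200a. All 5 differences were below 0 as deposited, although that of miR-141 turned to 0.99 after quantile normalization and 0.14 after the shift. The family had a list median of -0.61 as deposited, -0.14 after quantile normalization and -0.21 after the shift, and 0 of the 5 were called. P6 lay below both C50 and NK for 3 of the 5 members, where 33.2% of all probes did so. The miR-183, miR-96 and miR-182 cluster, known from sensory epithelia, had a list median of -0.46, which became 0.03 after quantile normalization. miR-182 read 7.27 on MSCP1 and 9.17 on P6, against 7.65 on C5N, 9.04 on C50 and 9.35 on NK.

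The keratinocyte label was checked with 7 markers, miR-203, miR-205 and the miR-200 family. Above background were 2 of them on MSCP1 and 6 on P6, against 2 on C5N and all 7 on C50 and NK. Of all mouse probes, 6.42% were so on MSCP1 and 25.7% on P6, against 22.4% on C5N, 26.0% on C50 and 23.4% on NK. MSCP1 and C5N thus matched in their count of markers but not in that share. The mean level of the 7 markers was 7.27 on MSCP1 and 9.59 on P6, against 7.47 on C5N, 10.09 on C50 and 9.86 on NK. Of 6 fibroblast and mesenchymal probes, 1 was above background on MSCP1, P6, C50 and NK and 0 on C5N. The markers of blood, endothelial and neural cells were at background on all 5 lines. On C5N, 1 of 2 melanocyte probes and the liver probe were above background, and 1 muscle probe was so on P6, C5N and C50. The part of these markers in the results was not tested.

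P6 differed from C50 and NK chiefly in a few miRNAs, described here line by line with no test. P6 lay above both by over 1 log2 unit at 8 probes (1.39%) and below both at 6 (1.04%), whereas it lay outside their range in either direction at 179 (31.1%) and 191 (33.2%) probes. The 8 were miR-125b-5p, miR-193, miR-29a, miR-29b, miR-21*, miR-146b, miR-763 and miR-365, and the 6 were miR-140, miR-140*, miR-27b, miR-24, miR-23b and miR-668.

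miR-125b-5p, which is abundant in stem cells of the hair follicle, read 9.92 on MSCP1 and 11.96 on P6, against 7.57 on C5N, 9.09 on C50 and 10.11 on NK. It was picked by its level on P6 and ranked 5 on both papilloma arrays, against 139 on C5N, 64 on C50 and 30 on NK. Its level on MSCP1, the dimmest array, was therefore close to that on NK and above those on C50 and C5N. The difference was 2.02 ± 1.21 log2 units (SE, limma adjusted p = 0.999). It was 2.93 after quantile normalization of the arrays other than C5N, with a limma adjusted p of 0.181. That setting was chosen after seeing the data, and in it miR-203 (-1.78) and miR-29a (1.88) had the same limma adjusted p. With the cross given in the descriptions as a covariate, the difference of miR-125b-5p was 0.12. By the descriptions, the cross covers both papilloma lines and no immortalized line. Only the malignant lines therefore set the effect of that covariate, and the 5 lines themselves cannot separate cross from papilloma. On the malignant squamous lines B9, E4 and PDVC57 miR-125b-5p read 12.60, 9.96 and 12.18.

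miR-193 read 7.70 on MSCP1 and 10.24 on P6, against 6.71 on C5N, 7.73 on C50 and 8.38 on NK. Its ranks were 33 on MSCP1 and 24 on P6, against 399, 143 and 92 on C5N, C50 and NK. Both papilloma lines thus ranked miR-193, which was picked by its level on P6, higher than each immortalized line. After quantile normalization, 47 of 576 probes lay higher on both papilloma lines than on each immortalized line. In signal, its difference of 1.36 ± 0.91 (SE, limma adjusted p = 0.999) was 0.09 without P6 and 2.64 without MSCP1. On the malignant squamous lines B9, E4 and PDVC57 miR-193 read 8.77, 11.15 and 10.14, above each immortalized line. miR-365, a neighbour of miR-193 genes, read 7.11 on MSCP1 and 8.18 on P6, against 8.34 on C5N, 7.04 on C50 and 7.17 on NK.

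The miR-29 family, which targets collagens and other matrix genes, was brighter on P6 than on both C50 and NK for 3 of 3 members. Of all probes, 31.1% were so. miR-29a read 8.45 on MSCP1 and 11.13 on P6, against 8.34 on C5N, 9.52 on C50 and 9.37 on NK. miR-29b read 8.26 on MSCP1 and 11.65 on P6, against 7.88 on C5N, 9.91 on C50 and 9.69 on NK. Within arrays miR-29a and miR-29b, which were picked by their level on P6, ranked higher on both papilloma lines than on each immortalized line. After quantile normalization 47 of 576 probes lay so. miR-29a ranked 14 on MSCP1 and 11 on P6, against 57 on C5N, 44 on C50 and 55 on NK. miR-29b ranked 15 and 7 on MSCP1 and P6, against 97, 34 and 41 on C5N, C50 and NK. miR-29c, the dimmest member, read 7.00 on MSCP1 and 8.57 on P6, against 6.60 on C5N, 8.06 on C50 and 7.40 on NK. It ranked 146 on MSCP1 and 80 on P6, against 476 on C5N, 109 on C50 and 163 on NK, so that MSCP1 ranked it below C50. The list median of the difference was 0.71 as deposited, 1.95 after quantile normalization and 1.12 after the shift, with 0 of 3 members called. miR-29a differed by 0.71 ± 0.95 (SE, limma adjusted p = 0.999), which turned to -0.63 without P6 and became 2.06 without MSCP1. miR-29b differed by 0.80 ± 1.03 (SE), which was -0.90 without P6 and 2.49 without MSCP1. On B9, E4 and PDVC57 miR-29a read 11.74, 12.21 and 11.56.

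**Figure D4:**
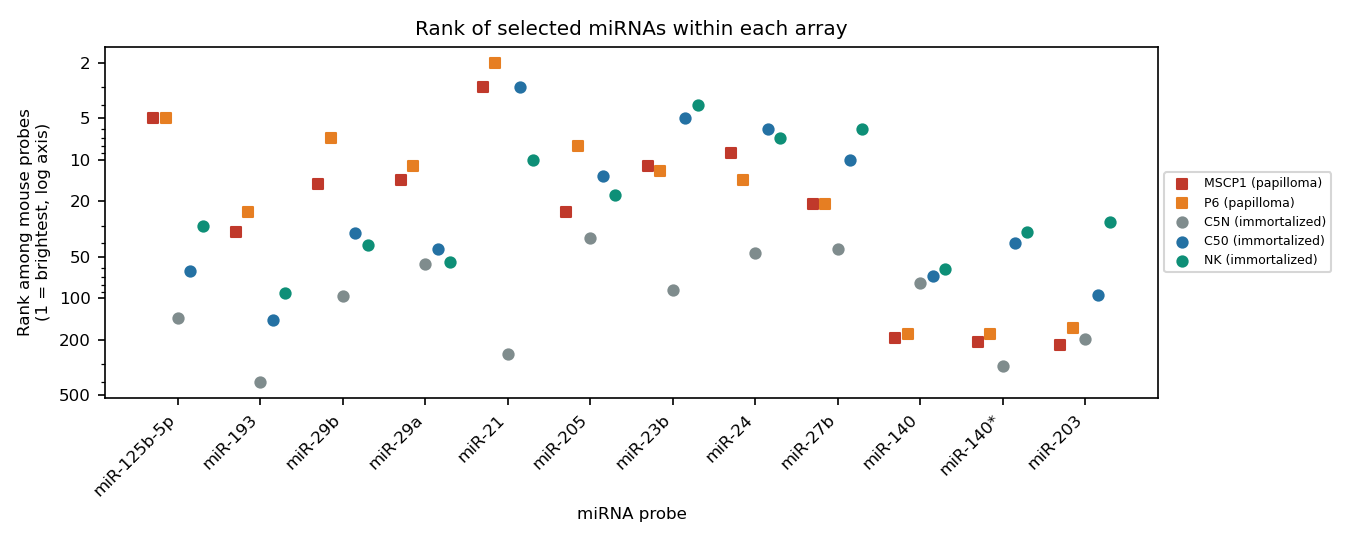
Rank of selected miRNAs among the 576 mouse probes of each array on a log axis, with 1 the brightest at the top, for papilloma lines (squares: MSCP1, P6) and immortalized lines (circles: C5N, C50, NK). miR-125b-5p, miR-193, miR-29a and miR-29b, picked by their level on P6, rank higher on both papilloma lines than on all 3 immortalized lines. miR-23b, miR-24, miR-27b, miR-140, miR-140* and miR-203 rank lower on both than on C50 and NK, while C5N ranks miR-23b, miR-24, miR-27b and miR-140* lower still.

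The miR-23/27/24 clusters ran the other way on P6. All 5 members lay below both C50 and NK there, where 33.2% of all probes did so. miR-24, which promotes keratinocyte differentiation, read 8.90 on MSCP1 and 10.90 on P6, against 8.69 on C5N, 12.44 on C50 and 12.07 on NK. miR-27b read 8.00 on MSCP1 and 10.52 on P6, against 8.78 on C5N, 11.81 on C50 and 12.11 on NK. miR-23b read 8.70 on MSCP1 and 11.02 on P6, against 8.00 on C5N, 12.48 on C50 and 12.54 on NK. P6 was thus over 1 log2 unit below C50 and NK for each, while C5N was below P6 for all 3. By rank, miR-24 stood at 9 on MSCP1 and 14 on P6, against 47 on C5N, 6 on C50 and 7 on NK. miR-27b stood at 21 on both papilloma lines, against 44 on C5N, 10 on C50 and 6 on NK, so that both miRNAs ranked lower on papilloma lines than on C50 and NK and higher than on C5N. The median difference of the 5 was -1.17 as deposited, -0.76 after the shift and 0.05 after quantile normalization, and it was -1.22 when C5N was left out of that normalization. With C5N on the quantile scale, no direction held for these clusters, and 0 of 5 members were called.

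The miR-30 family, known from autophagy and from repression of Snai1, was lower on papilloma lines for 5 of 5 members, with 0 called, where 442 of all 576 probes were lower. P6 lay below both C50 and NK for all 5, where 33.2% of all probes did so. miR-30a read 7.58 on MSCP1 and 9.45 on P6, against 8.31 on C5N, 10.56 on C50 and 10.15 on NK. miR-30e read 7.31 on MSCP1 and 8.16 on P6, against 8.12 on C5N, 9.58 on C50 and 9.14 on NK, so that C5N overlapped P6. The median difference of the family was -1.16 as deposited, -0.32 after quantile normalization and -0.75 after the shift.

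Among 8 miRNAs tied to Ras signalling and skin tumour promotion, 5 were higher and 3 lower on papilloma lines and 0 were called. Of all 576 probes, 134 were higher. Without C5N, the differences of miR-21 and miR-221 turned to -0.39 and -0.60 log2 units. They were 1.24 and 0.27 without both C5N and MSCP1, and 1.03 and 0.49 after quantile normalization without C5N. The list median was 0.22 as deposited, 0.80 after quantile normalization and 0.62 after the shift. miR-21, which represses Pdcd4, read 10.21 on MSCP1 and 13.47 on P6, against 7.01 on C5N, 13.01 on C50 and 11.45 on NK. It ranked 3 on MSCP1 and 2 on P6, against 251 on C5N, 3 on C50 and 10 on NK, so the groups differed mainly through C5N. Its passenger strand miR-21* read 7.44 on MSCP1 and 9.28 on P6, against 7.87 on C5N, 8.03 on C50 and 7.45 on NK. miR-31, a driver of keratinocyte growth in wounds and tumours, read 8.19 on MSCP1 and 11.43 on P6, against 9.33 on C5N, 11.53 on C50 and 10.44 on NK. miR-221 and miR-222, which repress the cell cycle inhibitor p27, were brighter on P6 than on NK and dimmer than on C50. miR-222 read 7.53 on MSCP1 and 9.97 on P6, against 7.84 on C5N, 10.36 on C50 and 8.47 on NK.

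Of 7 probes for p53 targets, 2 were higher and 5 lower on papilloma lines and 0 were called, a share near that of all probes, of which 442 of 576 were lower. Their median was -0.17 as deposited, 0.02 after quantile normalization and 0.23 after the shift. miR-34a, a direct p53 target, read 7.48 on MSCP1 and 9.26 on P6, against 7.38 on C5N, 9.28 on C50 and 9.31 on NK, so that it was as bright in the p53 null line as in P6 and C50. Probes of the miR-34b and miR-34c transcript differed among themselves. miR-34b-3p read 7.52 on MSCP1 and 9.01 on P6, against 8.57 on C5N, 9.37 on C50 and 9.17 on NK, and like miR-34a it was above background on NK. miR-34c read 7.17 on MSCP1 and 8.66 on P6, against 7.18 on C5N, 8.08 on C50 and 6.94 on NK. miR-34b-5p read 7.47 on MSCP1 and 8.40 on P6, against 6.46 on C5N, 7.67 on C50 and 6.35 on NK. miR-34c and miR-34b-5p were above background on P6 and C50 and at background on MSCP1, C5N and NK.

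**Figure D5:**
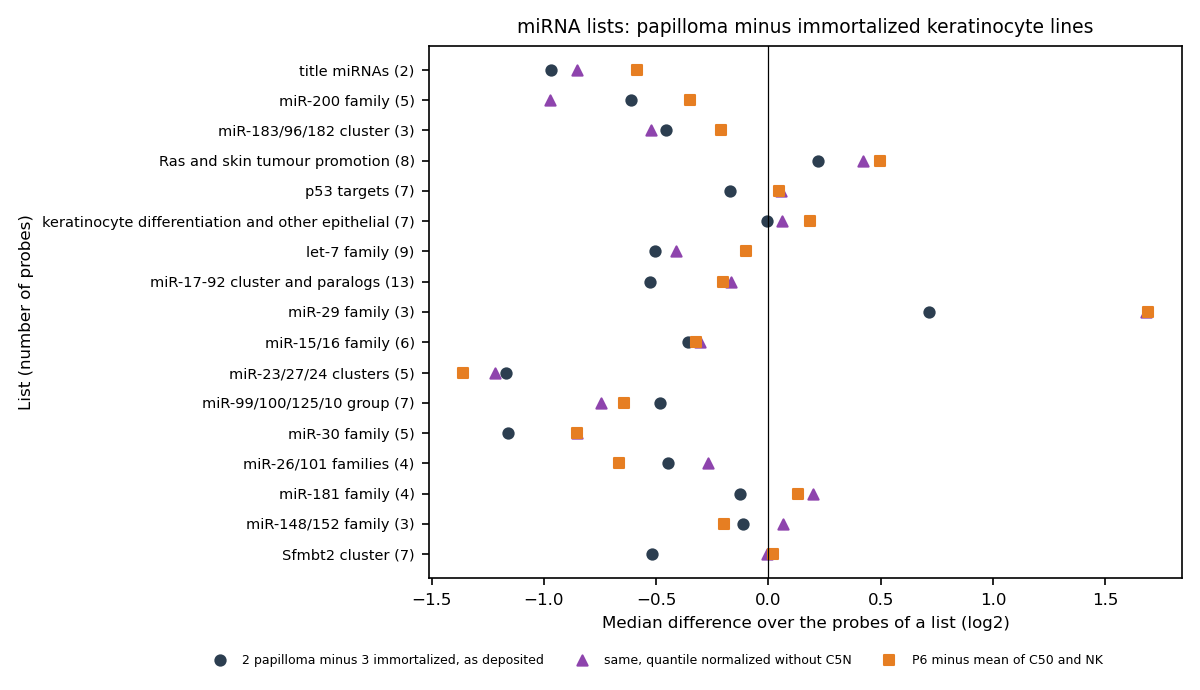
Median log2 difference over the probes of each miRNA list, as papilloma minus immortalized lines in the deposited values (circles), the same after quantile normalization without C5N (triangles), and P6 minus the mean of C50 and NK (squares), with the number of probes in parentheses and no error bars. The miR-29 family lies at 0.71, 1.68 and 1.69, and the miR-23/27/24 clusters at -1.17, -1.22 and -1.36, although quantile normalization with C5N gives 0.05 for these clusters.

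The other lists had medians of the deposited differences between -0.53 and -0.01, with 0 members called in each, against -0.12 over all probes and -0.41 over those above background on at least 2 of the 5 lines. The let-7 family, which restrains Ras and Lin28, had 1 of 9 members higher and 8 lower on papilloma lines, and its median of -0.51 turned to 0.31 after quantile normalization. let-7e read 9.41 on MSCP1 and 11.68 on P6, against 8.00 on C5N, 11.92 on C50 and 12.37 on NK. The miR-17-92 cluster and its paralogs were lower for 13 of 13 members, where 442 of all 576 probes were lower, with a median of -0.53, which was -0.02 after quantile normalization and -0.12 after the shift. The miR-15 and miR-16 family had a median of -0.36, which turned to 0.07 after quantile normalization and 0.04 after the shift. The miR-26 and miR-101 families had a median of -0.45, which turned to 0.15 after quantile normalization and was -0.04 after the shift. P6 lay below both C50 and NK for 4 of 4 of their members, where 33.2% of all probes did so.

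The miR-99, miR-125 and miR-10 relatives (7 probes) had a median of -0.48, or -0.22 after quantile normalization and -0.08 after the shift, with miR-125b-5p the single member higher on papilloma lines. The miR-181 family had a median of -0.13, which turned to 0.28 after the shift. The miR-148 and miR-152 family had a median of -0.12, which turned to 0.26 after quantile normalization and 0.29 after the shift. The keratinocyte differentiation list, which includes miR-24 and miR-125b-5p, had a median of -0.01, which turned to 0.22 after quantile normalization and 0.40 after the shift. The cluster in an intron of Sfmbt2 had a median of -0.52, or -0.39 after quantile normalization and -0.11 after the shift. Its member miR-466f-3p read 14.29 on C5N, and the cluster's median for P6 against C50 and NK was 0.02.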

How the data were processed

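miRNA levels of 13 mouse skin cell lines were measured on Exiqon arrays, 1 array per line and 2 for A5, which were averaged. Per the labels' protocols, RNA was extracted with Qiagen's miRNA kit and labelled with Cy3. The deposited values are log2 signals, a scale read from the values. How background was corrected and arrays were normalized is not given in the sources used here. Centring and any offset are therefore unknown, and a difference against a level near background understates the change. The columns' medians over all probes were 6.71 (MSCP1), 6.77 (P6), 6.86 (C5N), 6.76 (C50) and 6.77 (NK), and they were used without rescaling. The number of arrays limits the precision.

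The 576 probes naming a mouse miRNA were tested on all 13 lines in 4 groups by limma (version 3.58.1, R 4.3.3), with lmFit, a trended eBayes and Benjamini-Hochberg adjustment at 0.05. A line was the unit of replication, so p-values reflect only how these lines spread. Exact permutation tests used scipy 1.17.1. The limma steps were tested on simulated data. Lists (17, with 8 marker lists) and the lines compared were chosen with earlier results of these data known, and lists are described by counts and medians.

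The miRNAs named were miR-203 and miR-205, up to 8 non-overlapping probes in each direction that were above background on every line of the higher group, up to 4 of the brightest members of each list, up to 4 probes that stood over 1 log2 unit above the other 4 lines, and up to 5 with the largest difference of P6 from C50 and NK. Others, among them miR-140*, miR-146a, miR-146b, miR-21*, miR-29c and miR-763, and the miRNAs listed by count, were named after their values were seen. Alternatives were quantile normalization, array scaling, array weights, a filter on dim probes, all miRNA probes, the cross as a covariate, the 5 lines alone, no intensity trend and leaving out lines. The 570 miRNA probes of other species and the control probes stayed out of the tests.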

Additional observations from a re-analysis of the deposited data

How the results depend on the processing

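The count of 0 called probes held under each alternative except leaving out C50, which called 1 probe, miR-224 (limma adjusted p = 0.0133), so that leaving out 1 line gave 0 to 1. miR-224 read 6.50 and 6.50 on MSCP1 and P6, against 7.77, 6.51 and 7.34 on C5N, C50 and NK. The share of probes without overlap, 10.2%, was 4.51% after array scaling, 5.41% with the filter on dim probes, 64.2% without both C5N and MSCP1, 34.9% after quantile normalization without C5N (an alternative chosen after seeing the data), and 19.1% to 48.1% with 1 line left out, or 110 to 277 probes. Fewer lines overlap less by construction. The miR-205 difference turned to 0.48 after quantile normalization, 0.55 without C5N and MSCP1 and 0.084 after quantile normalization without C5N, and ran from -2.36 to 1.22 with 1 line left out. The miR-203 difference ran from -2.05 to -0.56 in that way. Without 1 line, the differences of array measures ran from -101 to 10 for probes above background, -0.648 to 0.0136 for the SD of mouse probes, -0.78 to 0.52 for spike-ins, -0.54 to 1.67 for U6-snRNA-1, -1.38 to 1.29 for U6-snRNA-2, -1.28 to 1.48 for SNORD2 and -0.06 to -0.01 for negative controls. The cause of these changes was not tested. Of 76 named miRNAs, 24 changed sign after quantile normalization, 13 after scaling, 30 without MSCP1 and 10 without P6, and 0 were called under any alternative. The array weights fit stopped before convergence. No paired analysis was possible because the lines of the 2 groups are different lines that the labels do not number, so nothing pairs them.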

Other observations

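Some values set single immortalized lines apart. The p53 null line NK lay over 1 log2 unit above all 4 other lines at 6 probes, against 7 for P6, 46 for C5N and 0 each for MSCP1 and C50. miR-99a and miR-100, which share a seed and repress Mtor, were 2 of the 6. miR-99a read 6.73 and 6.54 on MSCP1 and P6, against 6.58 on C5N, 6.94 on C50 and 8.63 on NK. miR-100 read 6.60 and 7.05 on MSCP1 and P6, against 6.88 on C5N, 7.27 on C50 and 8.89 on NK. Both were thus above background on NK alone of the 5 lines. miR-301a read 7.39 and 8.97 on MSCP1 and P6, against 7.66 on C5N, 9.40 on C50 and 10.57 on NK. On C5N, let-7g* read 13.37 and miR-466c-5p read 13.81.

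The members of a seed pair did not always move together between P6 and the immortalized lines. miR-125b-5p was brighter on P6 than on C50 and NK, whereas miR-125a-5p read 7.21 on MSCP1 and 9.13 on P6, against 7.38 on C5N, 9.57 on C50 and 10.07 on NK. Whether the 2 differ in this respect was not tested.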
